A study of Mus musculus with 24 samples.

Results

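The genes described here are 8 components of antigen presentation by major histocompatibility complex (MHC) class I, out of 750 genes with values on a NanoString panel. They were chosen by name and function: the immunoproteasome subunits Psmb8, Psmb9 and Psmb10, the peptide transporter genes Tap1 and Tap2, the loading factor Tapbp, the class I light chain B2m and the regulator Nlrc5. All 8 were found and measured in 24 samples of mouse mammary tumours, grown as mammary tumour-derived transplants (mTDT) in BALB/c hosts. By the infiltrate class in the labels, 13 samples were inflamed, 4 excluded and 7 desert. The first letter of a sample code goes with the origin of the tumour: A (5 samples), C (6), F (2), G (4), H (4) or L (3). It is followed by 0 (5 samples) or F2 (19 samples). These class names usually mean lymphocytes inside the tumour (inflamed), lymphocytes kept at its edge (excluded) or few lymphocytes at all (desert). How samples were put into classes is not given in the labels, and had these same values been used for it, comparing the classes would be circular. Genotype, age and treatment of the donors and hosts, and the meaning of 0 and F2, are likewise not given in the labels. Each sample is whole tumour tissue, so its RNA can come from tumour cells and from host cells alike. Class and letter overlap: the 4 samples of H are all inflamed, both of F are desert, and C holds 4 desert and 2 excluded samples. The overlap is partial, since A, C, G and L each hold samples of 2 classes.

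Cells display fragments of their own proteins on class I molecules, where CD8+ T cells read them. The proteasome cuts the proteins, and interferon gamma replaces its constitutive catalytic subunits with those encoded by Psmb8, Psmb9 and Psmb10, which changes the peptides made. TAP1 and TAP2 together carry the peptides into the endoplasmic reticulum, tapasin (Tapbp) bridges that transporter to the empty class I molecule, and beta-2 microglobulin (B2m) is the light chain that every classical class I molecule needs to reach the surface. NLRC5 is a transactivator that drives transcription of class I heavy chain genes and several of these partners. Tumours can lose any of these steps, which lowers their visibility to CD8+ T cells.

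Psmb9, Tap1, Psmb8 and Tap2 are neighbours in that order on chromosome 17 in the RefSeq annotation, inside the MHC region, and Tapbp lies on the same chromosome. B2m lies on chromosome 2, and Psmb10 and Nlrc5 on chromosome 8. RefSeq promoter windows (250 bases before to 50 after the start, build GRCm38.p6) were at hand for 6 of the 8 genes, all but Tap2 and Nlrc5. The windows of Psmb9 and Tap1 face away from each other and share 275 of their 300 bases. The 3 windows printed below are those of the gene with the largest difference between inflamed and desert tumours (Psmb9), of the gene that varied most closely with it (Psmb8), and of the light chain gene (B2m). Capitals mark matches, on either strand, to any of 5 motifs searched: the interferon-stimulated response element core (GAAA, any 2 bases, GAAA), bound by interferon regulatory factors, the gamma-activated site TTCNNNGAA, the CCAAT box CCAAT, the cAMP-response core TGACG and the NF-kB site (GGGA, any base, TTTCC).
Psmb9, chr17:34187281-34187580, minus strand: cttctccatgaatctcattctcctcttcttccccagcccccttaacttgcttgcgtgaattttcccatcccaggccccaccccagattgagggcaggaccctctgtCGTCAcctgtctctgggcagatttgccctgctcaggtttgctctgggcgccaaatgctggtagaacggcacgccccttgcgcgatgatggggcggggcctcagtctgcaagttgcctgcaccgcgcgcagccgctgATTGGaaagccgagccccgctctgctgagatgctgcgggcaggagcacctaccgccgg
Psmb8, chr17:34197945-34198244, plus strand: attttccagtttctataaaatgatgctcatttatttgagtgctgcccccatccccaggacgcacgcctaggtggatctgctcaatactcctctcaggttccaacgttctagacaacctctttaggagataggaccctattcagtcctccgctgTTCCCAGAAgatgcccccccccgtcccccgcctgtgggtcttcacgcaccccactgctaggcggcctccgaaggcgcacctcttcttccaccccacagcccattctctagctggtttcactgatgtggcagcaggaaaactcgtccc
B2m, chr2:122147437-122147736, plus strand: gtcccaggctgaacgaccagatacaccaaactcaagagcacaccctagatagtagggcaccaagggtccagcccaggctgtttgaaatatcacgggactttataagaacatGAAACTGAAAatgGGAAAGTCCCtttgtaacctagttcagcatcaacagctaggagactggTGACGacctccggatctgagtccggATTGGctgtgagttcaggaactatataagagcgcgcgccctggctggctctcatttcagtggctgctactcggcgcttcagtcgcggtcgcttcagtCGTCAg

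The B2m window held matches to 4 of these motifs, which do not overlap one another: the interferon-stimulated core (found in 3.44% of 32851 mouse promoter windows of this length), the NF-kB site (0.411%), the CCAAT box (37.4%) and TGACG (20.8%). The Psmb9 window held CCAAT and TGACG, both in the stretch it shares with Tap1. The match of the Psmb8 window was to the gamma-activated site, which 8.3% of windows hold. In the Tapbp window CCAAT alone matched, and no motif matched in that of Psmb10. Matches are letters in a window and say nothing of whether a factor binds there in these tumours.

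Values are in log2 units, the log2 of a normalised barcode count. Depth limited what could be read: recovered counts summed to between 5262 and 1110314 per library. In 16 libraries, called deep here, the total was at least 100000 (8 inflamed, 3 excluded, 5 desert), and in the 8 shallow ones (5, 1 and 2) it was at most 46603. The detection limit, set from the 75 lowest genes of a library, lay at 1.67 to 4.32 in deep and 5.14 to 8.40 in shallow libraries. All 8 genes exceeded it in 16 of 16 deep libraries, Nlrc5 by as little as 0.08. Over the 24 libraries the limit was exceeded in 24 for B2m, 22 for Psmb8 and Psmb9, 20 for Psmb10, 19 for Tap2 and Tapbp, 18 for Nlrc5 and 17 for Tap1. Deep libraries are therefore described first. Samples that share a code number (inflamed 3 and 4, excluded 2 and 3, desert 3, 4 and 6) may not be separate tumours, and nothing says whether the other samples came from separate animals. The p values cover the spread seen among these samples, which may be technical. Desert 3 and 4, both shallow, agree within sampling noise, so that they may be 1 library measured again, and showed only B2m above the limit. They enter the search for samples far from their group and the values given over all 24 libraries. Averaging the samples of each code number there also left 0 of the 8 genes passing in every comparison, and brought the B2m difference between inflamed and desert tumours to 0.25.

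**Figure D1:**
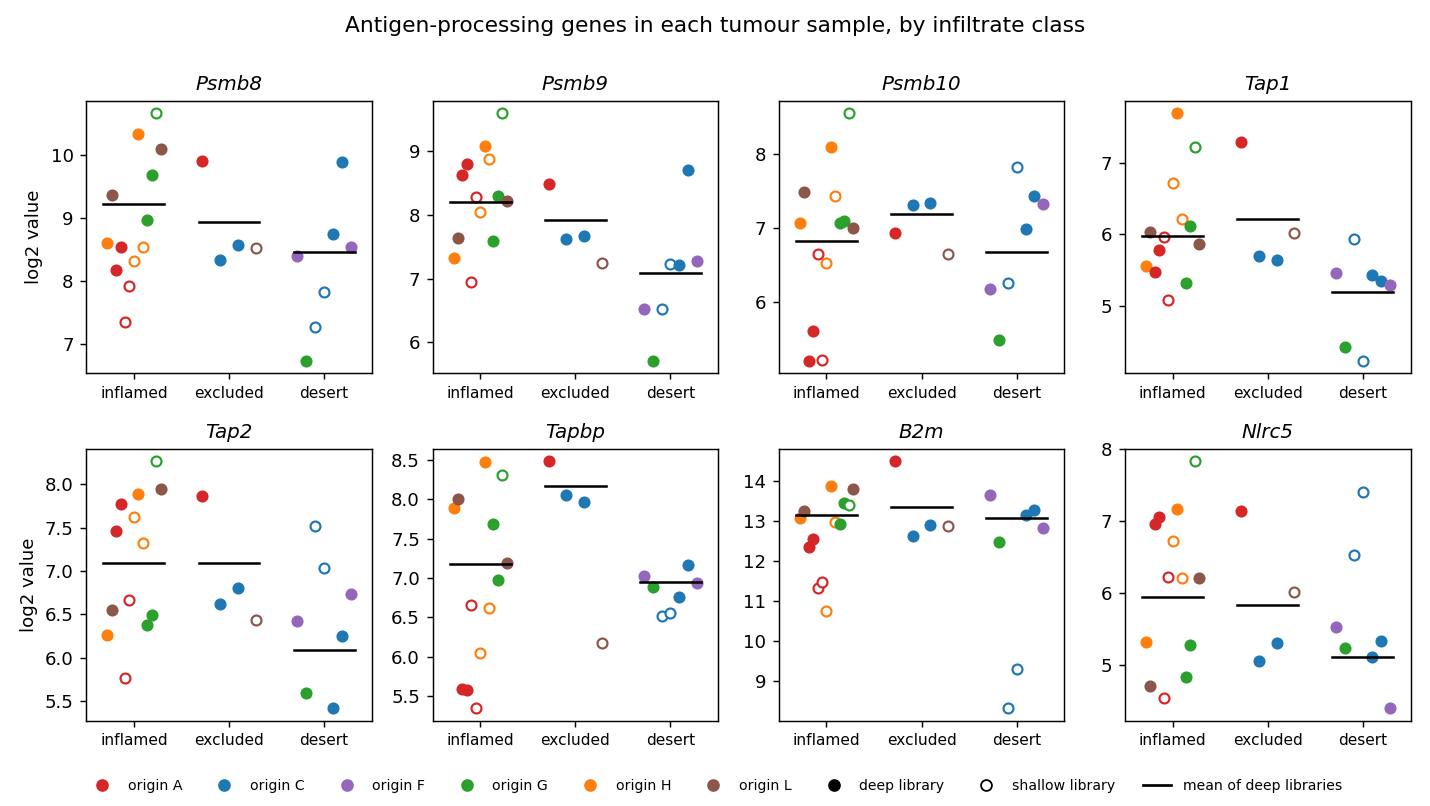
Log2 value (y axis) of each of the 8 genes in every sample, by infiltrate class (x axis). Filled points are deep libraries, open points shallow ones, colours are origin letters and bars are means of the deep libraries. For Tap1, 7 of the 8 deep inflamed points lie above all 5 deep desert points. For B2m the deep inflamed and desert points overlap, and excluded 1, at 14.49, lies above all of them.

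The first comparison, of inflamed with desert tumours, asks whether the presentation genes go with an infiltrate. Fitted with limma over all 750 genes, 0 of the 8 genes passed at an adjusted p of 0.05 in deep libraries, where 0.267% of all genes did. All 8 fitted differences were above 0, as were those of 58.5% of all genes, and their median was 0.77, against 0.12 for all 750 genes and 0.04 for the expressed ones. At an unadjusted p under 0.05 stood Psmb9 and Tap2, 2 of 8, against 10.7% of all genes. In these bulk samples, fewer cells of a type and less RNA per cell cannot be told apart.

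Among the immunoproteasome subunits, Psmb9, whose product takes the place of the caspase-like subunit, had the largest difference. Its deep values ran from 7.32 over a median of 8.26 to 9.09 in inflamed tumours, against 6.52, 5.71, 7.21, 8.70 and 7.28 in desert tumours. All 8 inflamed values lay above the desert median, but desert 6 at 8.70 exceeded 6 of them, so the classes overlapped. The difference was 1.11 (SE 0.45, p = 0.0242, adjusted p = 0.401). Psmb8, the chymotrypsin-like subunit that takes the place of Psmb5, ran from 8.18 over 9.16 to 10.33 in inflamed tumours, against 8.39, 6.73, 8.74, 9.89 and 8.54 in desert tumours. The lowest desert value, 6.73 in desert 2, stood apart from the other 4, and the difference was 0.76 (SE 0.50, adjusted p = 0.593). Psmb10, the trypsin-like subunit, ran from 5.21 over 7.06 to 8.09 in inflamed tumours, against 6.18, 5.48, 6.99, 7.43 and 7.32 in desert tumours. Its classes overlapped almost wholly, with a difference of 0.15 (SE 0.47, adjusted p = 0.948) that turned negative without desert 2 (-0.15), without inflamed 8 (-0.04) and with F2 codes only (-0.57).

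The transporter genes came next. Tap1 ran from 5.33 over 5.82 to 7.69 in inflamed tumours, against 5.46, 4.43, 5.44, 5.34 and 5.30 in desert tumours. Above the highest desert value lay 7 of 8 inflamed values, some by little, and the difference was 0.78 (SE 0.41, adjusted p = 0.539). Tap2, its partner in the heterodimer, ran from 6.27 over 7.01 to 7.95 in inflamed tumours, against 6.42, 5.60, 5.42, 6.26 and 6.74 in desert tumours. Above the highest desert value lay 4 of 8 inflamed values, and above the desert median all 8, with a difference of 1.01 (SE 0.40, p = 0.0224, adjusted p = 0.401).

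Tapbp, which encodes tapasin, was wide in inflamed tumours, from 5.58 over 7.44 to 8.48, and narrow in desert tumours (7.03, 6.89, 6.76, 7.16 and 6.93). Of the inflamed values 5 lay above and 2 below all desert values. The 2 below were inflamed 3 and 4, the pair of letter A that shares a code number. The difference was 0.22 (SE 0.46, adjusted p = 0.907), and 0.75 (adjusted p = 0.383) without letter A. B2m ran from 12.34 over 13.15 to 13.87 in inflamed tumours, against 13.64, 12.47, 13.15, 13.25 and 12.81 in desert tumours, a difference of 0.08 (SE 0.38, adjusted p = 0.968). Its values were the least spread of the 8 genes, with an SD of 0.58 over deep libraries against a median SD of 0.85 among expressed genes. Nlrc5 ran from 4.70 over 5.76 to 7.18 in inflamed tumours, against 5.52, 5.23, 5.10, 5.33 and 4.39 in desert tumours, a difference of 0.82 (SE 0.50, adjusted p = 0.578). Inflamed 3, 4, 8 and 13 exceeded every desert value of Nlrc5, and the other 4 inflamed samples lay within the desert range.

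Over all 24 libraries 0 of the 8 genes passed, and 0% of all genes did. Again 8 of 8 differences were above 0 (50.3% of all genes), at a median of 0.72. Psmb9 stood at 1.23 (SE 0.39, p = 0.00406, adjusted p = 0.339) and Tap1 at 0.91 (SE 0.36, adjusted p = 0.565). These were the 2 genes at an unadjusted p under 0.05, against 5.2% of all genes. For both genes desert 3 and 4 lay below the limit, and they entered this fit as 2 samples though they may be 1 library. B2m stood at 0.85 (SE 0.63), far above its deep difference. In the shallow desert 3 and 4 B2m was 8.33 and 9.32, and without letter C, which holds them and 2 deep desert samples, the difference was -0.27.

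Codes with 0 and F2 were also read apart. In the 4 code 0 samples of these classes, all deep, inflamed 1 and 2 were set against desert 1 and 2, which hold 4 different letters, so that letter and class cannot be told apart there. Inflamed means were higher for 7 of 8 genes, by 1.44 for Psmb10, 1.42 for Psmb8, 1.37 for Psmb9, 0.99 for Tapbp and 0.85 for Tap1, which are the 5 genes whose groups did not overlap (47.9% of all genes did not). Tap2 differed by 0.40, B2m by 0.10 and Nlrc5 by -0.37. With F2 codes only, the deep difference was 1.31 for Nlrc5, 1.19 for Tap2, 0.71 for Psmb9, 0.68 for Tap1, 0.24 for Psmb8, 0.08 for B2m, -0.04 for Tapbp and -0.57 for Psmb10, and none passed. Nlrc5, Psmb10 and Tapbp thus changed sign between the 2 kinds of code, a difference that was not tested. With origin letter added as a fixed term beside class, an alternative chosen after seeing the data, the deep difference was 1.37 for Psmb9, 0.76 for Tap2, 0.72 for Psmb8, 0.47 for Psmb10, 0.29 for Tap1, -0.18 for Nlrc5, -0.42 for Tapbp and -0.50 for B2m, and none passed. The smallest adjusted p of the 8 in that limma fit was 0.494, for Psmb9. The share of all genes passing in that fit and with F2 codes only is not given here.

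Marker lists of other cells were read in the same deep libraries. Of 7 measured neutrophil markers 2 were higher and 5 lower in inflamed than in desert tumours, with 1 passing (median -1.49). Of 12 T cell markers 12 were higher and of 10 macrophage and monocyte markers 4 were higher and 6 lower, with 0 passing in both (medians 1.05 and -0.04). Of 4 mammary epithelial markers 4 were higher with 0 passing. The summed neutrophil markers (6 of 7 expressed, Ly6g not) lay at 6.54 to 10.84 in inflamed and 10.55 to 12.26 in desert deep libraries, on the log2 scale. The summed T cell markers lay at 5.85 to 7.98 in inflamed and 4.78 to 6.90 in desert tumours, with 8 of 12 not expressed, among them Cd3e, Cd4 and Cd8a. Macrophage and monocyte markers (9 of 10 expressed) lay at 9.10 to 12.93 in inflamed and 10.51 to 11.75 in desert tumours. In inflamed tumours mammary epithelial markers lay at 3.73 to 10.43, with a median of 4.85. In desert tumours they lay at 2.41 to 4.39, with a median of 3.52. Epcam, Cdh1 and Lamb3, 3 of the 4 on the panel, were not expressed in at least 8 of 16 deep libraries. By limma's F test over origin letters in deep libraries 2 of the 4 passed (0.4% of all genes), and letter and class overlap in part. The part of these cells in the differences above was not tested.

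**Figure D2:**
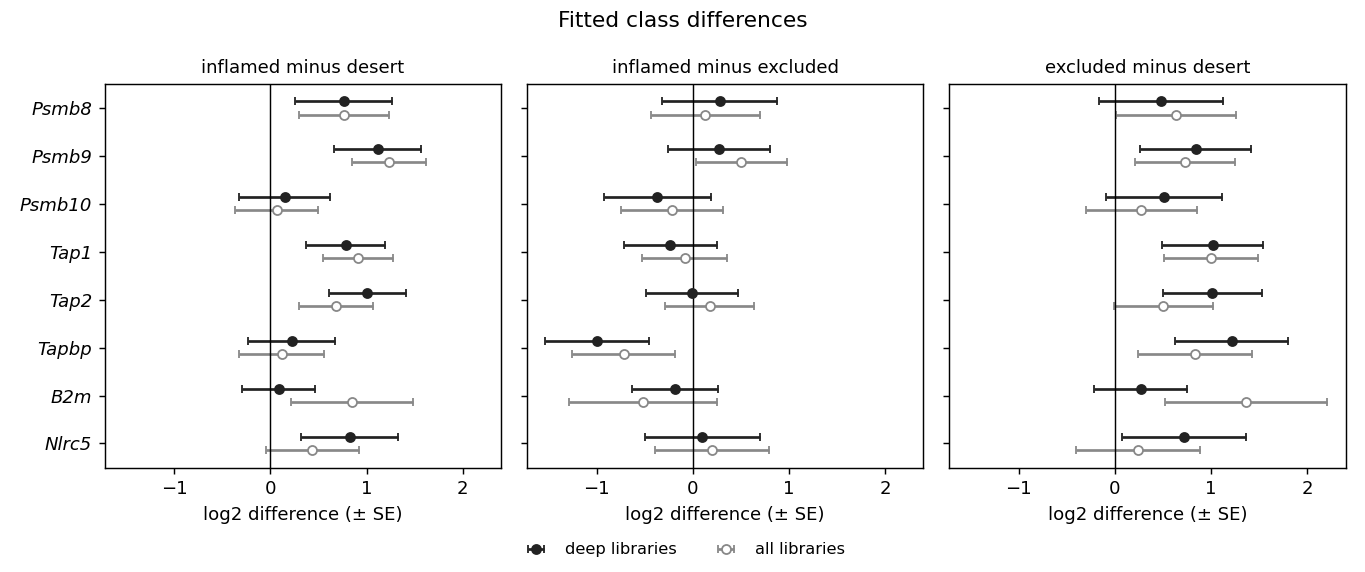
Fitted log2 difference (x axis, bars are SE) of each gene (y axis) for inflamed minus desert, inflamed minus excluded and excluded minus desert, in 16 deep libraries (black) and in all 24 (grey, open). In the deep libraries all 8 genes lie above 0 in the left and right panels, which share the desert samples, and 3 of 8 in the middle one.

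Excluded tumours were compared with desert tumours to ask what goes with a marginal infiltrate. In deep libraries 0 of the 8 genes passed, as did 0% of all genes. All 8 differences were above 0, at a median of 0.78, against 0.13 for all genes, 58.3% of which were above 0 (64.4% of expressed genes). Groups did not overlap for 2 of the 8 genes, Tapbp and Tap1, against 7.87% of all genes. At an unadjusted p under 0.05 stood 0 of the 8, against 6.13% of all genes. Of 18 type I interferon induced genes 17 were higher and 1 lower in excluded tumours (median 1.05, 8 at an unadjusted p under 0.05), of 12 T cell markers 12 were higher (median 0.83) and of 9 natural killer and cytotoxic markers 7 were higher and 2 lower (median 0.82), with 0 passing in the 3 lists. The summed natural killer and cytotoxic markers (6 of 9 expressed) lay at 5.59 to 8.30 in excluded tumours, with a median of 8.26. They lay at 5.52 to 7.53 in desert tumours, with a median of 5.77, so the classes overlapped. The summed neutrophil markers lay at 9.63 to 10.54 in excluded and 10.55 to 12.26 in desert tumours. The part of these genes and cells in the differences of the 8 was not tested.

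Tapbp was 8.49, 8.05 and 7.97 in excluded tumours, against 7.03, 6.89, 6.76, 7.16 and 6.93 in desert tumours. Every excluded value exceeded every desert value, and the fitted difference was 1.21 (SE 0.59, p = 0.0539, adjusted p = 0.784). Tap1 was 7.29, 5.70 and 5.64 in excluded tumours, and the highest desert value was 5.46. The excluded sample of letter A carried most of that difference, which was 1.02 (SE 0.53, adjusted p = 0.809) with it and 0.48 without letter A. Tap2 differed by 1.01, Psmb9 by 0.84, Nlrc5 by 0.72, Psmb10 by 0.51, Psmb8 by 0.48 and B2m by 0.27. Without letter A the values were 0.63 for Tap2, 0.56 for Psmb9, 0.07 for Nlrc5, 0.64 for Psmb10, -0.01 for Psmb8 and -0.31 for B2m, while Tapbp kept 1.06. The shallow excluded 4 had Tapbp at 6.17, below its limit of 6.75, so it gives only a bound. Within letter C, the letter with deep samples of both classes, Tapbp averaged 8.01 in the 2 excluded libraries, which share a code number, and 6.96 in the 2 deep desert libraries.

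Inflamed tumours were compared with excluded tumours to ask what goes with where the infiltrate lies. In deep libraries 0 of 8 genes passed, as did 0% of all genes, and 3 differences were above 0 (50.4% of all genes). Their median was -0.09, and 0 of 8 stood at an unadjusted p under 0.05 (8.53% of all genes). Tapbp stood furthest from 0, at -0.995 (SE 0.54, p = 0.0847, adjusted p = 0.631), and 6 of 8 inflamed values lay below all 3 excluded values. Without letter A it was -0.31. With origin letter as a fixed term beside class, chosen after seeing the data, it passed at -2.04 (SE 0.54, adjusted p = 0.0412), as did 8.27% of all genes. That fit counts inflamed 3 and 4, which share a code number, as 2 samples, and with the samples of each code number averaged Tapbp did not pass (-1.98, SE 0.69, adjusted p = 0.230). Among deep libraries only letter A holds both of these classes. There Tapbp was 8.49 in excluded 1, of code 0, and 5.59 and 5.58 in inflamed 3 and 4, of code F2. The other 7 genes differed by -0.37 (Psmb10) to 0.28 (Psmb8), each less than its SE. Over all 24 libraries 0 of 8 passed with limma in this comparison and 0 of 8 in excluded against desert tumours (0% of all genes in both). At an unadjusted p under 0.05 stood 0 of 8 in both, against 3.33% of all genes in inflamed against excluded and 2.4% in excluded against desert tumours. Differences above 0 were 4 of 8 in inflamed against excluded (52.7% of all genes) and 8 of 8 in excluded against desert tumours (46.3%).

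Origin letters were compared to ask whether a tumour line carries its own level of these genes. In deep libraries limma's F test over the 6 letters passed 0 of 8 genes (0.4% of all genes). Nlrc5 was the 1 gene of the 8 at an unadjusted p under 0.05 (18.4% of all genes), with p = 0.0126 and an adjusted p of 0.207. It was 7.15, 6.96 and 7.06 in letter A, and the means of the other letters ran from 4.96 (F, n = 2) to 6.24 (H, n = 2). Across classes the letter A values of Nlrc5 stayed together at 7.05 ± 0.10 (SD, n = 3), while inflamed 8 of letter H reached 7.18. Of these 3 letter A libraries, inflamed 3 and 4 share a code number and may be 1 tumour. In the same 3 libraries Psmb9 averaged 8.64 ± 0.16 and Tap2 7.70 ± 0.21, while Tapbp spread widely at 6.55 ± 1.67. The shallow A libraries differed again, with Nlrc5 at 4.54 in inflamed 5, below its limit, and 6.22 in inflamed 6. With F2 codes only, 2 of the 8 genes passed over letters, Nlrc5 (adjusted p = 0.0118) and Psmb10 (adjusted p = 0.0230), against 19.6% of all genes. Of those 11 deep F2 libraries, letters F, H and L have 1 each, both of A share a code number, and so do 2 of the 4 of C, so the spread within letters comes in part from samples that may be 1 tumour. Without excluded 1, which leaves letter A with the inflamed 3 and 4 of 1 code number, Tapbp passed (adjusted p = 0.0355), against 19.9% of all genes. With the samples of each code number averaged over the 16 deep libraries, 0 of 8 passed. Over all 24 libraries 0 of 8 passed (0% of all genes), and 0 of 8 stood at an unadjusted p under 0.05 (8% of all genes).

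**Figure D3:**
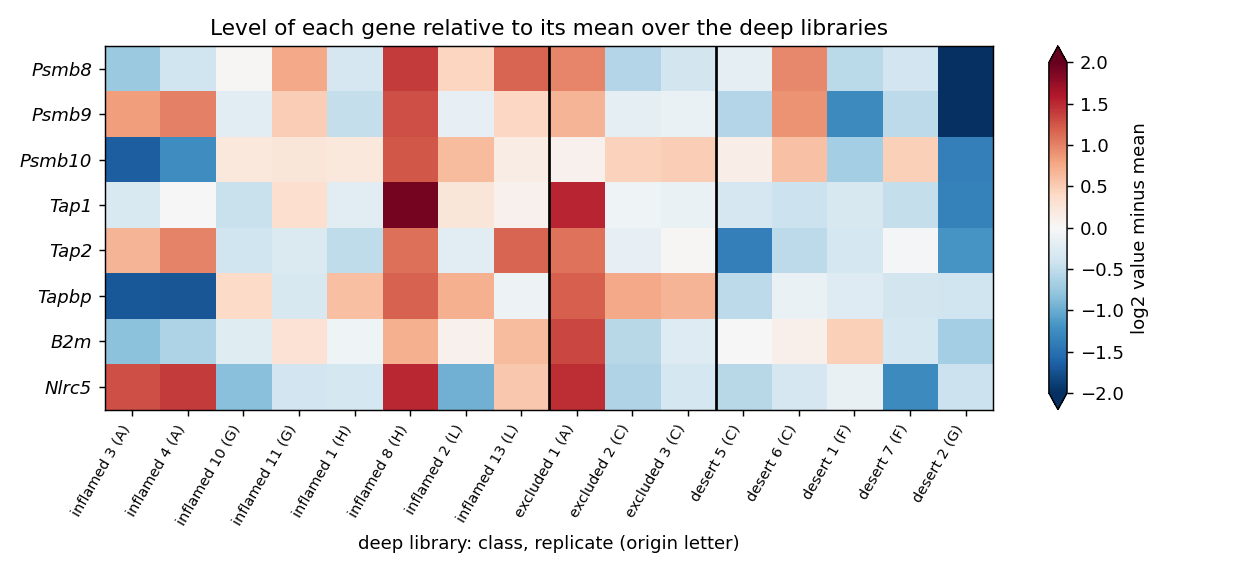
Log2 value minus its mean over the 16 deep libraries (colour, capped at 2 either way) for each gene (rows) in each deep library (columns, with the origin letter). Inflamed 8 and excluded 1 are above the mean for 8 of 8 genes and desert 2 for 0 of 8, while inflamed 3 and 4 are high for Psmb9, Tap2 and Nlrc5 and low for Psmb10 and Tapbp.

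Tumours of 1 class differed among themselves. Averaged over the 8 centred genes, inflamed 8 (letter H) stood highest of the deep libraries at 1.296, then excluded 1 (letter A) at 1.05 and inflamed 13 (letter L) at 0.51. The lowest was desert 2 (letter G) at -1.21, then desert 5 (letter C) at -0.43. Desert 6, also of letter C, stood at 0.14, level with inflamed 11 and above 5 of the 8 inflamed libraries. Inflamed 8 and excluded 1 exceeded the deep mean for 8 of 8 genes and desert 2 for 0 of 8. The mean of all expressed genes was also up in inflamed 8 (0.51) and excluded 1 (0.33), and was 0.02 in desert 2. Relative to it, the 8 genes stood at 0.79 in inflamed 8, 0.72 in excluded 1 and -1.23 in desert 2. The shallow inflamed 12, of the same letter G as desert 2, stood at 1.45 with 8 of 8 genes above its limit, the only shallow library of which that holds. In inflamed 12 the mean of all expressed genes was up by 0.63, and relative to it the 8 genes stood at 0.82.

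The pair inflamed 3 and 4, F2 samples of letter A, was above the deep mean for 3 of the 8 genes and below it for 5. Psmb9 was 8.63 and 8.80, Tap2 7.46 and 7.78 and Nlrc5 6.96 and 7.06 in this pair, all above the deep mean of their gene. Psmb8 was 8.18 and 8.54, Tap1 5.48 and 5.77 and B2m 12.34 and 12.53, below their deep means of 8.93, 5.78 and 13.16, with Tap1 of inflamed 4 lower by under 0.01 and B2m of inflamed 3 the lowest of the 16. Psmb10 was 5.21 and 5.61 and Tapbp 5.59 and 5.58, both among the lowest deep values, since the lowest of the other 14 deep libraries were 5.48 for Psmb10 and 6.76 for Tapbp. Psmb9 minus Psmb10 within a library was 3.19 and 3.42 in the pair, against -0.04 to 1.27 in 13 deep libraries of other letters and 1.55 in excluded 1. Psmb9 minus Psmb8 was 0.27 and 0.45 in the pair, against -1.88 to -0.71 in those 13 libraries and -1.42 in excluded 1. Psmb9 minus Tapbp was 3.04 and 3.23 in the pair, against -1.18 to 1.54 in the 13 and 0.00 in excluded 1. These 3 pairs of genes were chosen after the libraries were seen. Of all 28 pairs among the 8 genes, the difference in inflamed 3 and 4 lay outside the range of the 13 libraries for 16 (57.1%), as it did for 43.1% of 161028 pairs of expressed genes. Tap2 minus Tap1, at 1.99 and 2.00 in the pair, lay inside the range of -0.02 to 2.09. A difference outside the range shows unequal change of the 2 genes and not which of them moved. Of the shallow F2 samples of letter A, inflamed 6 had Psmb9 minus Psmb10 at 3.06, and inflamed 5 had it at 0.30. The constitutive subunit Psmb5, which Psmb8 replaces, gave another view. Psmb8 minus Psmb5 was -2.03 and -1.88 in the pair, against -1.99 to 1.67 in the 13 deep libraries of other letters. Psmb9 minus Psmb5 was -1.58 and -1.62 in the pair, inside the range of -3.01 to 0.43 in the 13. Psmb10 minus Psmb5 was -5.00 and -4.81 in the pair, below the range of -3.23 to -0.56 in the 13. In the pair the expressed genes averaged 0.68 and 0.62 below their deep mean, and these 2 values moved with the low Psmb10 and Tapbp but not with the high Psmb9, Tap2 and Nlrc5; their part was not tested.

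**Figure D4:**
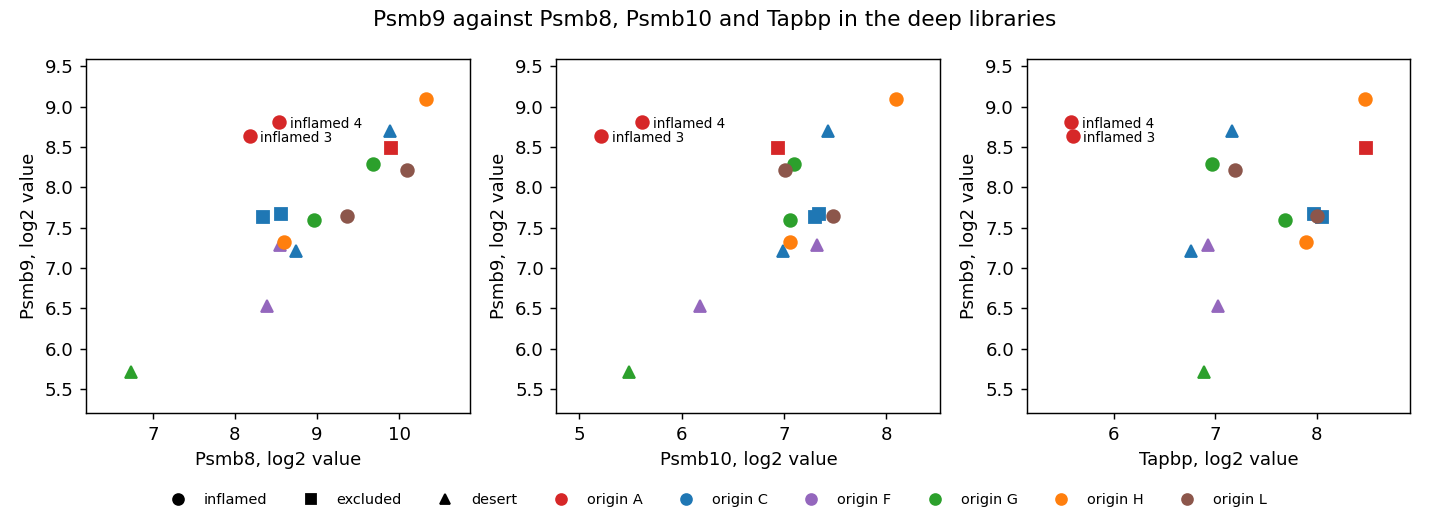
Psmb9 (y axis, log2 value) against Psmb8, Psmb10 and Tapbp (x axes, log2 value) in the 16 deep libraries, with colour for the origin letter and shape for the class. Inflamed 3 and 4 sit to the left of the other points at their height of Psmb9, and most of the rest run from low left to high right against Psmb8 and Psmb10.

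How the 8 genes varied together was read over 14 deep samples, with libraries of 1 code number averaged. Of 28 pairs 27 (96.4%) had a Pearson r above 0, with a median of 0.58, against 58% of all pairs of the 568 expressed genes, with a median of 0.09. With the mean of the expressed genes of each sample subtracted, 25 of 28 were above 0 with a median of 0.50, against 48.7% of expressed pairs with a median of -0.01. By permutation and after Benjamini-Hochberg adjustment over the 28 pairs, 11 passed by Pearson's r and 1 by both measures, Psmb8 and B2m (r = 0.75, p = 0.00212, adjusted p = 0.0119; rho = 0.81, p = 0.00084, adjusted p = 0.0235). Without the 2 samples farthest from the median of Psmb8 its r was 0.68. The highest r was that of Psmb8 and Psmb9 (0.83, p = 0.0003, adjusted p = 0.0084; rho = 0.60, p = 0.0265, adjusted p = 0.0852), which was 0.61 without the 2 farthest samples. The neighbours Psmb9 and Tap1, whose promoter windows overlap, had an r of 0.71 (p = 0.00571, adjusted p = 0.0160; rho = 0.67, p = 0.0117, adjusted p = 0.0852), and 0.42 without the 2 farthest. Nlrc5 went with Tap2 (r = 0.77, p = 0.00199, adjusted p = 0.0119; rho = 0.47, p = 0.0937, adjusted p = 0.164), at 0.69 without the 2 farthest. The 1 negative pair was Psmb10 and Nlrc5 (r = -0.13, p = 0.673, adjusted p = 0.698; rho = -0.23, p = 0.425, adjusted p = 0.441). Psmb9 and Psmb10 had an r of 0.47 (p = 0.0946, adjusted p = 0.139; rho = 0.34, p = 0.235, adjusted p = 0.287), and 0.83 over the 13 samples left without the inflamed 3 and 4 sample, so that value rests on 1 sample. Samples of 1 letter are among the 14, so they may not be independent. The permutation test was not run over pairs of expressed genes, so the count of 11 has no background share beside it.

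Genes outside the 8 that varied most like their mean over the 16 deep libraries were named by Pearson's r, as a description over libraries that share letters and depth. First was H2-T23 (r = 0.85), which encodes the mouse class Ib molecule Qa-1, then the chemokine gene Cxcl10 (0.75), the guanylate-binding protein gene Gbp3 (0.73), the class I gene H2-Q2 (0.71), Eif2ak2, which encodes the antiviral kinase PKR (0.71), the galectin gene Lgals9 (0.70), the death ligand gene Tnfsf10 (0.70), the integrin gene Itgax (0.69), the costimulatory receptor gene Cd40 (0.68) and Gbp2b (0.68). H2-T23 ran from 6.66 to 8.55 in inflamed tumours, and was 8.73, 7.66 and 7.55 in excluded and 6.55, 6.62, 6.82, 6.76 and 7.17 in desert tumours. Each gene of the 8 had its own nearest gene. For Psmb8 it was Gbp3 (0.76), for Psmb9 H2-M3 (0.80), for Psmb10 the chemokine receptor gene Cxcr6 (0.90) and for Tap1 H2-T23 (0.84). For Tap2 it was the T cell kinase gene Zap70 (0.75), which exceeded the limit in only 8 of 16 deep libraries. For Tapbp it was the ubiquitin ligase gene Dtx3l (0.91), ahead of Stat2 (0.91) and Parp9 (0.91), for B2m it was Ly6c1 (0.86), ahead of the heavy chain gene H2-D1 (0.80), and for Nlrc5 it was Erbb2 (0.82). Without inflamed 3 and 4 the r of Tapbp with Dtx3l was 0.79, that of Psmb10 with Cxcr6 0.83 and that of Nlrc5 with Erbb2 0.74. That last value still includes excluded 1, of letter A like the pair, with Nlrc5 at 7.15. Erbb2 too exceeded the limit in only 8 of 16 deep libraries, so its other values lie at the background. Of the 10 genes named first, Tnfsf10 exceeded it in 9 and H2-Q2 and Cd40 in 10 of 16.

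Other genes of the pathway, by list, were counted in inflamed against desert deep libraries. Of 9 measured class I heavy chain and related genes 7 were higher and 2 lower with 0 passing, at a median of 0.18. H2-M3, a class Ib molecule that presents formylated peptides, averaged 6.43 ± 0.46 (SD, n = 8) in inflamed and 5.70 ± 0.46 (n = 5) in desert tumours, a difference of 0.73 (SE 0.30, adjusted p = 0.426). H2-T23 differed by 0.55 (SE 0.35), H2-K1, the classical heavy chain of the K locus, by 0.62 (SE 0.36) and Cd1d1, which presents lipids, by -0.99 (SE 0.65). H2-K1 exceeded the limit in 2 of 16 deep libraries, so its difference is between values at the background. Tapbpl, a tapasin relative that edits peptides and the 1 measured gene of its list, averaged 3.68 ± 0.62 in inflamed, 4.13 ± 0.30 (n = 3) in excluded and 3.12 ± 0.53 in desert tumours. It differed by 0.56 (SE 0.35) between inflamed and desert tumours. Psmb5 differed by 0.11 (SE 0.38, adjusted p = 0.957).

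Of 12 interferon gamma signalling genes 6 were higher and 6 lower with 0 passing, at a median of 0.03. The phosphatase gene Ptpn11 differed by 0.38 (SE 0.31) and the receptor chain gene Ifngr2 by -0.59 (SE 0.54). Ifng itself (1.18, SE 0.82) exceeded the limit in 0 of 16 deep libraries. Of 9 interferon gamma induced genes 5 were higher and 4 lower with 0 passing, at a median of 0.08. Cxcl10 differed by 0.66 (SE 0.44), the adhesion molecule gene Icam1 by 0.45 (SE 0.59), Cxcl9 by 0.58 (SE 0.78) and Gbp2 by -0.56 (SE 0.79). In excluded against desert tumours 7 of these 9 were higher and 2 lower with 0 passing, at a median of 0.66, and in inflamed against excluded tumours 2 were higher and 7 lower with 0 passing, at a median of -0.68.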

How the data were processed

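Total RNA was extracted with Trizol and counted by NanoString barcoding, per the labels. The values the authors deposited are log2 values, 1 column per sample; with the log undone and 1 scale removed per sample, 100% of values were whole within 0.001, so they are log2 of scaled counts. How that scale was set, and any background subtraction, is not given in the sources used here, and the depth given is the sum of recovered counts over 750 genes (34 of 784 rows, 14 control probes and 20 genes, held no value). The detection limit of a library is the mean plus 2 SD of its 75 lowest genes, and a gene is expressed if above it in at least 8 of 16 deep libraries.

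The tests were those of limma 3.58.1 (R 4.3.3; lmFit and eBayes, 2-sided, Benjamini-Hochberg over 750 genes, threshold 0.05), with classes or letters as groups, over all samples and over deep libraries. The script was tested on simulated data. The 8 genes, the other lists and the deep limit of 100000 counts were chosen with earlier results of these data known. Named genes were the 8, up to 4 genes of each pathway list, by smallest p between inflamed and desert deep libraries, the 10 genes most like the mean of the 8 and the nearest of each. Correlations used 100000 permutations. Alternatives covered letter as a random block or fixed term, F2 codes only, averaging by code number, scaling, a pseudocount of 10, weights, and leaving out each sample or letter. Figures were drawn with matplotlib 3.10.9.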

Additional observations from a re-analysis of the deposited data

Results flagged for a closer look

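Samples far from the others of their group were looked for in 64 combinations of gene and group of 4 to 10 libraries, of which 8 held one by Dixon's criterion, where chance gives about 1 in 20. Excluded 1 (letter A) stood apart among the excluded libraries for Psmb8, at 9.90 against 8.34 to 8.56, and for B2m, at 14.49 against 12.61 to 12.90. Inflamed 8 stood apart among the letter H libraries for Psmb8, at 10.33 against 8.31 to 8.59, and among the deep inflamed libraries for Tap1, at 7.69 against 5.33 to 6.11. Desert 2 was low for Tap1 among the deep desert libraries, at 4.43 against 5.30 to 5.46. Among the letter C libraries desert 4 was low for Tap1, at 4.23, but this is a count of 1 below its limit of 8.40. Inflamed 5 was low for Psmb9 among the letter A libraries, at 6.95 against 8.28 to 8.80, from a count of 16. Inflamed 12 was high for Nlrc5 among the letter G libraries, at 7.84 against 4.83 to 5.28.

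The inflamed minus excluded difference had opposite signs in letters A and L for 4 genes, where every sample moved that way and the difference between letters was not tested. Values at or below a detection limit were set to that limit, on the lower side alone. B2m differed by -2.57 in A and 0.64 in L, a gap of -3.21. Psmb8 differed by -1.91 in A and 1.21 in L, a gap of -3.12. For Tapbp and Psmb10 excluded 4, the 1 excluded sample of L and a shallow library, was below its limit, so their differences in L and their gaps are the smallest sizes these values allow. Tapbp differed by -2.69 in A and at least 0.84 in L, a gap of -3.54 or more in size. Psmb10 differed by -1.26 in A and at least 0.49 in L, a gap of -1.75 or more in size. Each letter has 1 excluded sample. In A it is a deep library of code 0, while the 4 inflamed samples are F2 and 2 of them are shallow. In L it is a shallow library, while both inflamed samples are deep. Class therefore cannot be told apart from code in A or from depth in L.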

How the results depend on the processing

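Over 48 results, 1643 of 1736 alternative values kept the direction and the side of the threshold, 86 turned the sign, each of a difference that passed under no alternative, and 7 newly passed, 4 tests of single genes and the 3 counts that hold them. The count of the 8 genes called stayed at 0 under every alternative run, except in deep libraries, where letter as a fixed term gave 1 in inflamed against excluded tumours (Tapbp, adjusted p = 0.0412), and over letters: F2 codes only gave 2 (adjusted p = 0.0230 for Psmb10 and 0.0118 for Nlrc5), and leaving out 1 sample gave 0 to 1, with adjusted p from 0.0355 to 0.999 for Tapbp. In inflamed against desert tumours Psmb8, Psmb9, Tap1 and Tap2 kept a positive sign under all 45 alternatives in all libraries and all 36 in deep ones. The cause of the turns listed here was not tested.

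Differences that turned sign, in log2 units, were the following. With F2 codes only, the difference was -0.40 for Psmb10 and -0.0174 for Tapbp in inflamed against desert tumours (24 libraries), and -0.57 for Psmb10 and -0.037 for Tapbp in inflamed against desert deep libraries, and 0.37 for Tap1, 0.61 for Tap2 and 0.39 for B2m in inflamed against excluded deep libraries, and -0.61 for Psmb8, -0.0846 for Psmb9 and -0.32 for B2m in excluded against desert deep libraries. Without letter C, the difference was -0.27 for B2m in inflamed against desert tumours (24 libraries), and -0.69 for Psmb8, -0.29 for Psmb9 and -1.21 for Nlrc5 in inflamed against excluded deep libraries. Without letter G, the difference was -0.37 for Psmb10 and -0.0866 for Tapbp in inflamed against desert tumours (24 libraries), and -0.24 for Psmb10 and -0.0725 for B2m in inflamed against desert deep libraries, and 0.22 for Tap2 in inflamed against excluded deep libraries. Without letter H, the difference was -0.13 for Psmb10 and -0.0221 for Tapbp in inflamed against desert tumours (24 libraries), and -0.10 for Psmb10, -0.12 for Tapbp and -0.0224 for B2m in inflamed against desert deep libraries, and 0.0011 for Tap2 and -0.0007 for Nlrc5 in inflamed against excluded deep libraries. Without letter L, the difference was -0.0094 for Psmb10 and -0.0027 for Tapbp in inflamed against desert tumours (24 libraries), and -0.0385 for B2m in inflamed against desert deep libraries. With letter as a fixed term, the difference was -0.42 for Nlrc5 in inflamed against desert tumours (24 libraries), and -0.42 for Tapbp, -0.50 for B2m and -0.18 for Nlrc5 in inflamed against desert deep libraries, and -0.14 for Nlrc5 in inflamed against excluded deep libraries, and -0.0344 for Nlrc5 in excluded against desert deep libraries. With letter as a fixed term and samples of 1 code number averaged, the difference was -0.0966 for Nlrc5 in inflamed against desert tumours (24 libraries), and -0.25 for Tapbp, -0.26 for B2m and -0.18 for Nlrc5 in inflamed against desert deep libraries, and -0.14 for Nlrc5 in inflamed against excluded deep libraries, and -0.0351 for Nlrc5 in excluded against desert deep libraries. With letter as a random block, the difference was -0.0575 for B2m in inflamed against desert deep libraries. With samples of 1 code number averaged, the difference was -0.38 for Nlrc5 in inflamed against excluded deep libraries. With recentring on the sample median, the difference was 0.0362 for Tap1, 0.26 for Tap2 and 0.0861 for B2m in inflamed against excluded deep libraries. With quantile normalisation, the difference was 0.0083 for Tap1, 0.21 for Tap2 and 0.38 for B2m in inflamed against excluded deep libraries, and -0.30 for B2m in excluded against desert deep libraries. With recentring on the mean of expressed genes, the difference was 0.17 for Tap2 in inflamed against excluded deep libraries. With a pseudocount of 10, the difference was 0.0002 for Tap2 in inflamed against excluded deep libraries. Without letter A, the difference was 0.43 for Tap1, 0.21 for Tap2 and 0.63 for B2m in inflamed against excluded deep libraries, and -0.0072 for Psmb8 and -0.31 for B2m in excluded against desert deep libraries. Without the inflamed pair 3 and 4, the difference was 0.10 for Psmb10, 0.0551 for B2m and -0.26 for Nlrc5 in inflamed against excluded deep libraries. Leaving out each sample in turn, the difference ran from -0.15 to 0.24 for Psmb10 and from -0.0122 to 0.25 for Tapbp in inflamed against desert tumours (24 libraries). In inflamed against desert deep libraries it ran from -0.15 to 0.38 for Psmb10 and from -0.0642 to 0.23 for B2m. In inflamed against excluded deep libraries it ran from -0.52 to 0.31 for Tap1, from -0.25 to 0.38 for Tap2, from -0.54 to 0.39 for B2m, from -0.29 to 0.76 for Nlrc5 and from -0.0157 to 0.77 for Psmb8. In excluded against desert deep libraries it ran from -0.0072 to 0.84 for Psmb8 and from -0.31 to 0.63 for B2m.

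Depth and sample number limit these comparisons: in the 8 shallow libraries 1 to 8 of the 8 genes exceed the detection limit, 3 deep excluded samples hold 1 pair of a shared code number, and letter and class overlap in part. No paired analysis was possible because replicate numbers follow sample order. Samples of different classes do share letters, and letter was fitted as a random block and, as an addition made after seeing the data, as a fixed term, with 8 residual degrees of freedom in deep libraries.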

Other observations

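The class I heavy chain gene H2-K1 was mostly below the detection limit, while the 8 genes themselves were above it in 16 of 16 deep libraries. H2-K1 ran from 1.32 to 3.31 in inflamed, 0.97 to 2.48 in excluded and 1.55 to 2.07 in desert deep libraries. Of the 9 measured class I heavy chain and related genes 6 were expressed, among them H2-D1, above the limit in 16 of 16 deep libraries. Values at the background cannot tell low from absent RNA, and why those of H2-K1 lay there was not tested.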
